A study of Rattus norvegicus with 8 samples.

Results

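The genes described here are 8 transcripts of red blood cells and of heme synthesis, measured in liver RNA of rats on a high-fat or a normal diet. They are the hemoglobin chain gene Hbb, the erythroid heme enzyme gene Alas2, the red cell membrane genes Epb42 and Slc4a1, the hemoglobin chaperone gene Ahsp and the heme enzyme genes Alad, Urod and Fech. Members were taken as the non-control probes whose gene name in the array files equals one of these 8 names, which gave 13 of 46883 probes, for 7 of 25512 gene names. No probe carries the name Ahsp. Another 4 probes were added through their RefSeq accession, 3 of Ahsp listed under its older name Eraf and 1 of Epb42 listed as Epb4.2, so that 17 probes are described in all.

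The study measured transcripts in 8 liver samples of male Sprague Dawley rats, an outbred laboratory strain, on 1-colour Agilent oligonucleotide arrays, to look for factors linked to insulin resistance under a diet rich in fat. The high-fat group holds 4 samples of rats given a diet with 60% fat for 12 weeks, and the control group 4 samples of rats given a normal diet over the same 12 weeks. Both groups share strain, sex, tissue and a labelled weight of 180 to 200 g, and no age is given. Whether the 4 samples of a group are 4 animals is not in the labels, and the p-values below cover the spread between the samples, which may be technical. Whether blood was flushed from the livers is not given in the sources used here.

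Hemoglobin is built of alpha and beta chains, each holding a heme, and adult rats make it in red cell precursors of the bone marrow and spleen, while the liver does so in the fetus. Young red cells still carry globin messenger RNA, so liver RNA holds some from the blood in the organ. Heme is made in a chain of enzymes that starts with 5-aminolevulinate synthase, for which red cell precursors use the Alas2 gene and other cells, hepatocytes among them, use Alas1. Hepatocytes need much heme for their cytochrome P450 enzymes, so Alad, Urod and Fech are genes of both cell types, whereas Hbb, Alas2, Ahsp, Slc4a1 and Epb42 are known as erythroid genes. In RNA of a whole tissue, fewer cells of a type and less RNA per cell cannot be told apart.

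Values are normalized log2 intensities, the log2 signal of a probe after subtracting its array's 75th percentile, taken over those probes that rose well above background everywhere, so 0 is the level of that percentile. A log2 change is the high-fat mean minus the control mean. Tests with limma took in the 31535 probes that were well above background on at least 4 of the 8 arrays, and a probe was called where its p, adjusted over all tested probes by Benjamini-Hochberg, was under 0.05. Of the tested probes 286 (0.907%) were called, and 10.6% of probes had diet groups whose values did not overlap. The share of probes well above background ran from 50.4% to 71.9% over the control arrays and from 56.3% to 71.4% over the high-fat arrays, with control replicate 1 and high-fat replicate 1 the dimmest. All arrays lay on 1 slide, with replicates 1 and 2 of each diet in its first row and replicates 3 and 4 in its second. Of the 8 hepatocyte markers listed all were tested, and their mean lay between 5.41 and 5.80 on every array. Their log2 changes differed, with Cps1 at 0.98, Ass1 at 0.80 and Fgb at -0.14. Of the 8 markers 5 had negative changes, and none was called.

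The sequences of 2 sets of probes and of 3 promoters carry most of what follows. The 2 Alas2 probes are shown because they measured different changes in the same samples. The first begins at base 1667 of the Alas2 transcript and lies at chrX:39810353-39810412 on rn4, and the second has no position in the files. Both are 60 bases long. They are printed with no base marked, 5′ to 3′.
Alas2 A_44_P541461: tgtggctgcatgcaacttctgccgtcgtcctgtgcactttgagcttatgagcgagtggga
Alas2 GT_Rn_GE_00173536: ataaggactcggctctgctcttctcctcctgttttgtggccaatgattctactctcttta

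The 2 probes of the alpha globin gene Hba-a3 are shown because 1 of them was called. Capitals mark the 50 bases that they share, which makes them nearly a repeat measurement of 1 stretch of the transcript, offset by 10 bases.
Hba-a3 A_64_P077200: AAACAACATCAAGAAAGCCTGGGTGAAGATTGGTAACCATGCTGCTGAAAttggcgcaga
Hba-a3 GT_Rn_GE_00040144: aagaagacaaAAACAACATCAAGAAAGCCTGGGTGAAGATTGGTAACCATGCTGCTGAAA

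The probe of Hbe2, a beta-like globin gene named as an epsilon chain, is shown beside a probe of the beta chain gene Hbb-b1, as both had similar changes. Capitals mark the letters that are identical where the probes overlap, 35 of 44 bases (79.5%).
Hbe2 A_64_P048927: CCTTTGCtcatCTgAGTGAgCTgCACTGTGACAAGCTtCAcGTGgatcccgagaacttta
Hbb-b1 A_64_P088393: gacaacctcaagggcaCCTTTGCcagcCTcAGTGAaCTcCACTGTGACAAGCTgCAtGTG

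Hemoglobin genes whose probes moved together are shown by the 120 bases before their annotated start, from RefSeq's promoter table on GRCr8, each on the minus strand. Capitals mark the motif CACCC, the motif CCAAT of the CCAAT box and the motif ATAAA of the TATA box, and the reverse complement of each. The stretches are chr1:167663722-167663841 for Hbb, chr1:167643521-167643640 for Hbb-b1 and chr10:15842581-15842700 for the alpha chain gene Hba-a1.
Hbb: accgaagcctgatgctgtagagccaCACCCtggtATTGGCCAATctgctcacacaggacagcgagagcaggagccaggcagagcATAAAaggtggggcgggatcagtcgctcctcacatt
Hbb-b1: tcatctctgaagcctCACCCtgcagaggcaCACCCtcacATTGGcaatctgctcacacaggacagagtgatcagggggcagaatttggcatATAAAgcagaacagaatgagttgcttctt
Hba-a1: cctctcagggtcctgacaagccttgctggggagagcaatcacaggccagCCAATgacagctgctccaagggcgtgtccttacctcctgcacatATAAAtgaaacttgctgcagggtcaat

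The beta chain genes Hbb and Hbb-b1 held all 3 motifs in this window, in either strand, as did 0.956% of the 33469 promoters of the table. Singly, CACCC was in 29.5% of them, while CCAAT was in 19.9% and the letters ATAAA in 21.5%. Hba-a1 held the latter pair but not CACCC. In Hbb the CCAAT motif occurs on both strands, in matches that lie side by side, and the CACCC match starts 95 bases before the gene. AGATAA, searched on both strands and held by 4.57% of promoters, was in none of these 3 windows. Of the 8 members 6 have an entry in the table. The windows of Epb42, Urod and Fech held none of the 4 motifs, and that of Alad held CACCC once, on the other strand. The Alas2 entry starts 4550 bases inside the annotated gene, so its window, which held none of them either, is not that of the gene's outermost start.

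None of the 15 tested member probes was called, with 0 of 15 beside 0.907% of all tested probes, although Hbb and Alas2 had positive changes at every probe. Of the 15, 9 had positive and 6 negative changes. An unadjusted p under 0.05 by limma was found for 6 probes (40%), beside 15.5% of all tested probes. They were both probes of Hbb, both of Alas2, a probe of Fech and a probe of Alad, the last of them lower. The Hbb pair was correlated at r = 0.88 within diets and the Alas2 pair at 0.80, so these are not 6 independent measurements. The groups did not overlap for 2 of the 15 probes (13.3%, beside 10.6% of all), both of them of Alas2 and higher on the high-fat diet, where 5.18% of all probes had the high-fat group above and 5.46% below. Over all tested probes the median log2 change was 0.02, and 1.51% of probes had a change of 1 or more.

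**Figure D1:**
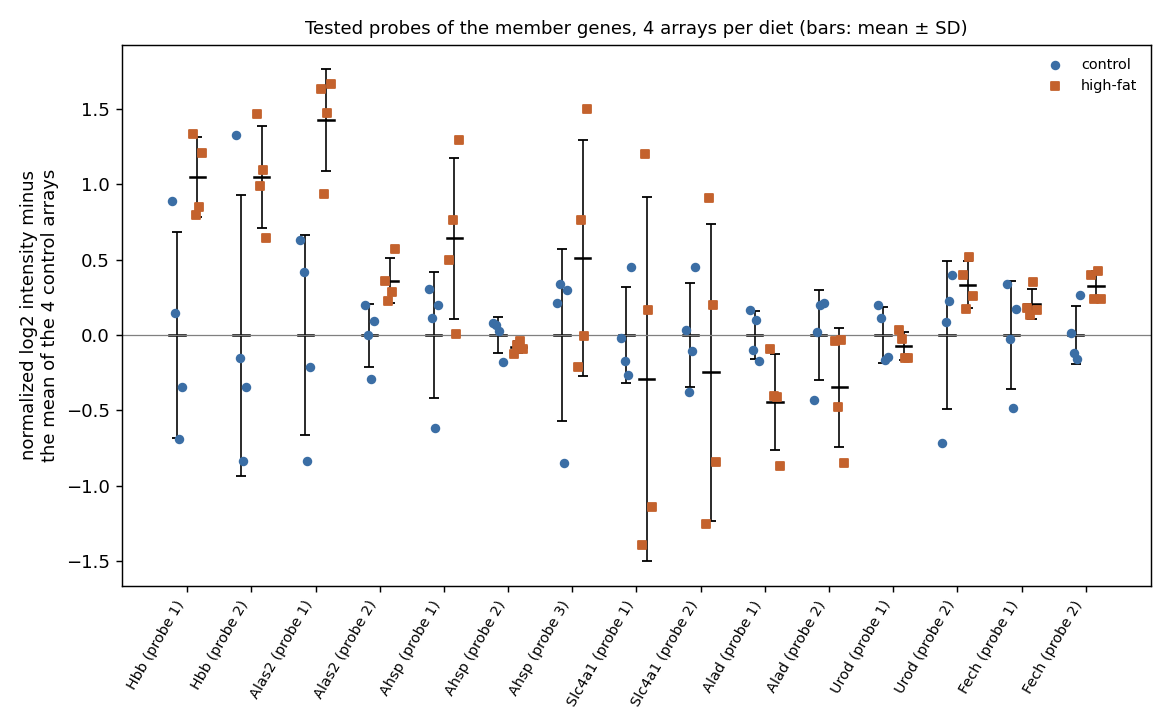
Values of the 15 tested member probes on each array. The vertical axis is the normalized log2 intensity minus the mean of the 4 control arrays, circles are control and squares high-fat arrays, and bars give the mean ± SD (n = 4 per group). All high-fat values of Alas2 lie above all control values at both probes, while control replicate 1 of Hbb lies among the high-fat arrays at both probes, and the high-fat values of Slc4a1 spread to both sides of the control values.

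Hbb, which encodes a beta chain, had a mean 2.07-fold higher in the high-fat samples by both probes, which did not pass the threshold. The first probe ends the transcript, starting at its base 546, at chr1:161584872-161584931 on rn4, and the files list it for 3 RefSeq mRNAs, so it can also bind those of near-identical beta chain genes. Control replicates 1 to 4 measured 4.82, 4.07, 3.24 and 3.58, and high-fat replicates 1 to 4 measured 5.26, 4.72, 4.78 and 5.13. Control replicate 1 lay among the high-fat values and the other 3 control arrays below them. The log2 change was 1.05 (95% interval 0.31 to 1.79, 2.07-fold), with an adjusted p of 0.18 by limma. The exact two-sided permutation test gave an unadjusted p of 0.0857, and its smallest possible p is 0.0286.

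The second Hbb probe lies at the other end of the transcript. It begins at base 1 after the annotated start of Hbb, and the files list it for 1 mRNA, at chr1:161620134-161620193. The files thus place the Hbb probes 35.3 kb apart on rn4, farther than 1 beta chain gene reaches, so that at least 1 of the positions is at another copy. Control values were -0.66, -2.14, -2.83 and -2.34, and high-fat values were -0.52, -1.0, -0.90 and -1.35. The change was again 1.05 (95% interval 0.07 to 2.02; adjusted p = 0.29 by limma). The control arrays stood in the same order at both ends of the transcript, with control replicate 1 high and control replicate 3 lowest. The high-fat arrays did not, as high-fat replicate 4 was near the top at the first probe (5.13) and the lowest of them at the second (-1.35). Correlated over the 8 arrays after removing each diet's mean, the probes had r = 0.88. Without control replicate 1 the changes were 1.34 and 1.49, and without control replicate 3 they were 0.82 and 0.77.

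The position on the slide moved with these values. Within the first slide row the log2 change of Hbb was 0.55 and 0.64 by the respective probes, and within the second row it was 1.55 and 1.46. Each row holds 2 arrays per diet, so these are values with no test. With slide row as a block the log2 change at the first probe was 1.05 (adjusted p = 0.15 by limma). Whether the change differs between the rows was not tested.

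The alpha and beta chain genes had changes of the same sign at every tested probe. The array holds 11 tested probes of 6 adult hemoglobin chain genes, Hbb included, and this set was drawn up with the values known. All 11 had positive changes, between 1.05 and 1.91 with a median of 1.26 (2.07-fold to 3.75-fold), and each one's 95% interval lay above 0. The groups did not overlap for 7 of the 11, beside 5.18% of all probes in that direction. The files list 3 of the 11 probes for more than 1 RefSeq mRNA, and the Hba-a3 probes overlap by 50 bases, so these are not 11 independent measurements. Control replicate 3 was the lowest of all arrays at every one of the 11, and control replicate 1 the highest control array at 9. Within the first slide row the changes ran from 0.21 to 1.30 and within the second from 1.46 to 2.51.

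The alpha chain gene Hba-a3, named LOC287167 in the files, was the globin called, by 1 of its overlapping probes, and it rose 3.75-fold. At the called probe control values were -5.67, -5.20, -7.00 and -5.84, and high-fat values were -4.07, -4.20, -3.96 and -3.85. The groups are well apart, but the probe was well above background on 2 of 4 control arrays, and on all 4 high-fat arrays. The log2 change was 1.91 (95% interval 1.13 to 2.68; adjusted p = 0.049 by limma), beside 0.377% of all tested probes called as higher. The probe that shares 50 bases with it had 1.31 (95% interval 0.75 to 1.87; adjusted p = 0.054). With another background correction, normexp, the change of the called probe was 0.96, and its call was lost in 13 alternatives and kept in 6.

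The brighter alpha chain probes were well above background everywhere. Hba-a1, named Hba-a2 in the files, measured 5.43, 5.29, 4.20 and 4.43 in control and 6.10, 5.49, 6.02 and 6.30 in high-fat samples. Its high-fat values all lay above the control values, of which those of replicates 1 and 2 came near the lowest high-fat value. The log2 change was 1.14 (95% interval 0.42 to 1.85; adjusted p = 0.14 by limma). A probe near the start of the same transcript gave 1.16 (adjusted p = 0.26), and Hba-a2, named LOC360504 in the files, gave 1.26 (adjusted p = 0.14).

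Of the other beta-like genes, Hbb-b1 had log2 changes of 1.12 and 1.31 at its 2 probes and Hbb-bs 1.27 and 1.34, with adjusted p-values from 0.12 to 0.19 by limma. Hbe2 measured 3.05, 2.36, 1.20 and 1.84 in control and 3.83, 2.91, 3.44 and 3.84 in high-fat samples, a log2 change of 1.39 (adjusted p = 0.15). Its values followed those of Hbb from array to array (r = 0.96 within diets, 8 arrays). Other globin genes named for embryonic or fetal chains were dim or had small changes. Hbe1 was not tested, as its 2 probes were well above background on at most 1 array. Hbg1 had a log2 change of -0.21 and Hbz of -0.19, each with an interval across 0. The globins Mb of muscle, Cygb of connective tissue cells and Ngb of neurons had changes of -0.02, 0.05 and -0.23. The direction for Mb and Hbz turned in some alternatives.

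**Figure D2:**
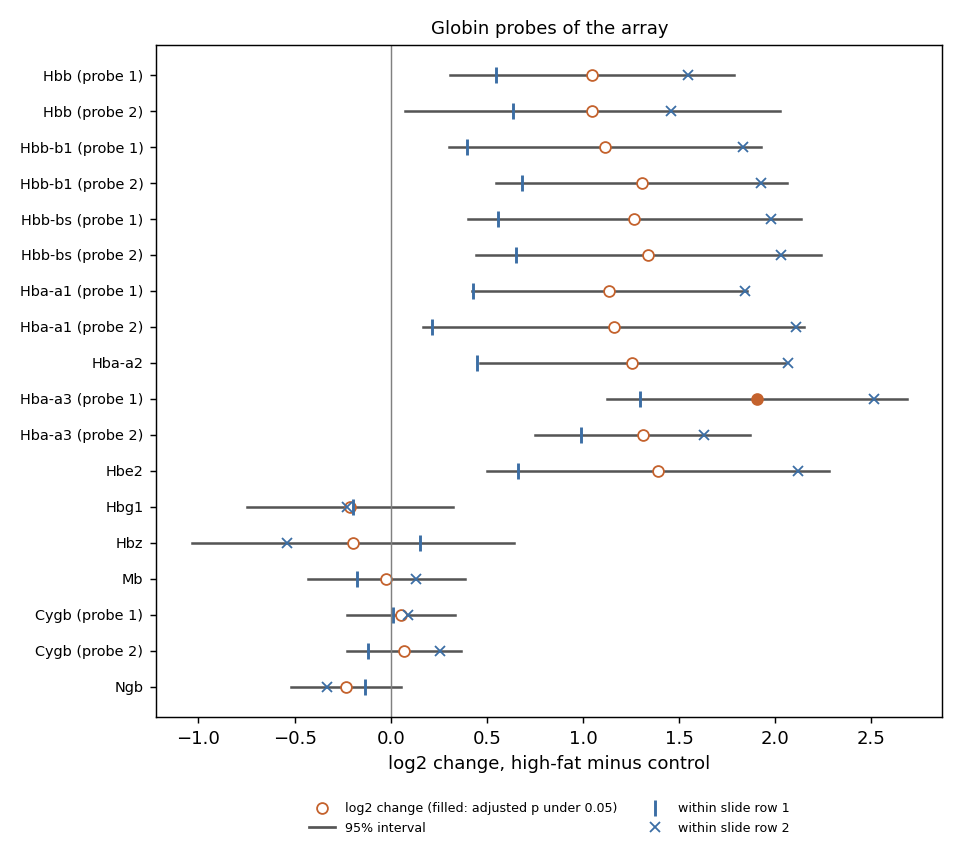
Log2 change, high-fat minus control, of every tested globin probe. Circles are the change over 4 arrays per diet with its 95% interval, filled where the adjusted p was under 0.05, and the bar and cross marks are the changes within slide rows 1 and 2. The adult chain probes and Hbe2 lie between 1.05 and 1.91 with the second row above the first, and Hbg1, Hbz, Mb, Cygb and Ngb lie between -0.23 and 0.07.

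Ahsp, which encodes a chaperone that holds free alpha chains, had log2 changes of 0.64, 0.51 and -0.08 at its 3 probes, none of them called. Its brightest probe by name Eraf measured -2.88, -3.07, -3.80 and -2.99 in control and -2.69, -2.42, -3.18 and -1.89 in high-fat samples. High-fat replicate 3 lay among the control values, and high-fat replicate 4 was the highest. The change of 0.64 had a 95% interval of -0.05 to 1.33 and an adjusted p of 0.36 by limma. A second probe, at chr1:187561484-187561543, gave 0.51 (adjusted p = 0.62) and varied with the first (r = 0.91 within diets, 8 arrays). The third gave -0.08 (adjusted p = 0.81) with an r of -0.18 to the first, so the Ahsp probes disagree as well. Without high-fat replicate 4 the first gave 0.42 and the second 0.18, and without control replicate 3 they gave 0.44 and 0.23.

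Slc4a1, which encodes the band 3 anion exchanger of the red cell membrane, varied widely among the high-fat samples, and its change by diet was small beside that spread. At its first probe control values were -4.06, -4.21, -4.31 and -3.59, and high-fat values were -5.44, -2.84, -3.88 and -5.18. The control arrays lay close together, while the high-fat group held the highest and the 2 lowest values. The SD was 0.32 in control and 1.21 in high-fat samples. This gave a log2 change of -0.29 (95% interval -1.51 to 0.92; adjusted p = 0.85 by limma). Its second probe, at chr10:91455352-91455411, gave -0.25 (adjusted p = 0.85), and the pair agreed array by array (r = 0.98 within diets, 8 arrays). Both changes turned positive, to 0.08 and 0.09, without high-fat replicate 1. Against Hbb the correlation within diets was -0.34 and -0.38.

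Epb42, which encodes protein 4.2 of the red cell membrane skeleton, was too dim to test. Its probe at chr3:107808613-107808672 was well above background on none of the control arrays and 1 of the high-fat arrays, and the probe named Epb4.2 on none and 2. No fold is given, because the bright side did not exceed the dimmest signal that counts as above background.

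**Figure D3:**
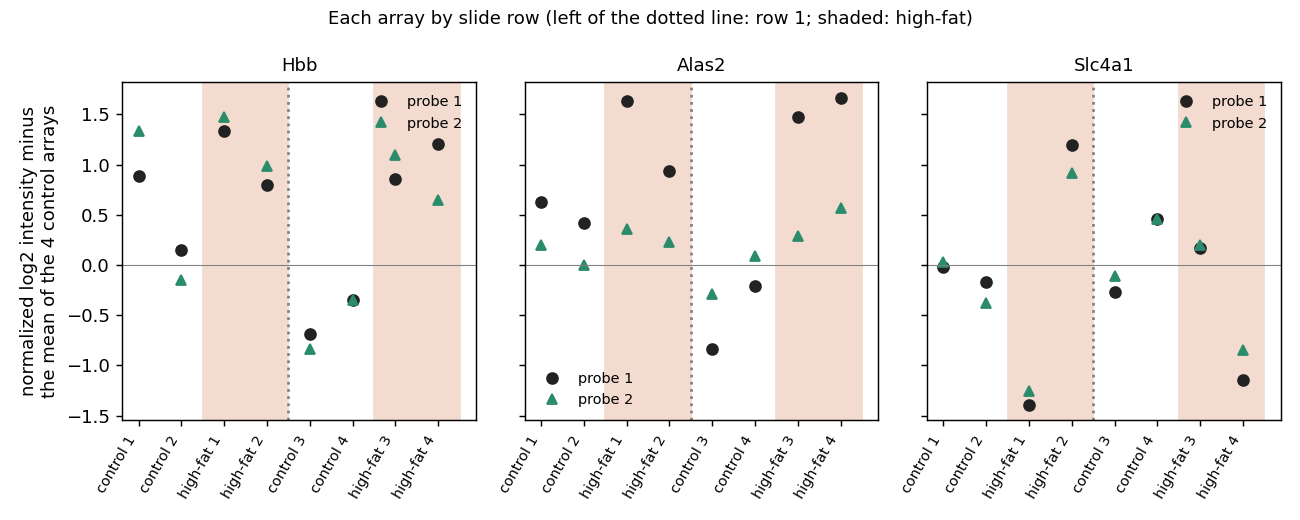
Both probes of Hbb, Alas2 and Slc4a1 on each array, as the normalized log2 intensity minus the mean of the 4 control arrays. Circles are the first and triangles the second probe, shading marks high-fat arrays, and the dotted line separates slide row 1 from row 2. The Slc4a1 probes lie near each other on each array, and the Hbb probes on most, with high-fat replicate 4 the farthest apart. The second Alas2 probe spans a smaller range than the first, and Slc4a1 is lowest on high-fat replicates 1 and 4.

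Alas2, the erythroid enzyme of the first heme step, had a log2 change of 1.43 by its brightest probe, the largest among the tested member probes, and of 0.36 by the other. At the first probe, printed above, control values were -1.75, -1.97, -3.22 and -2.60, and high-fat values were -0.75, -1.45, -0.91 and -0.72. All high-fat arrays lay above all control arrays. The log2 change of 1.43 (95% interval 0.68 to 2.18, 2.69-fold) had an adjusted p of 0.09 by limma. The exact two-sided permutation test gave an unadjusted p of 0.0286, the smallest p it can give. Every probe whose groups do not overlap, 10.6% of all, gets that p. The call was made in 2 alternatives, with an adjusted p of 0.042 after normexp and 0.049 where a probe had to be well above background on all 8 arrays, and over all alternatives this p ran from 0.042 to 0.22. Within the slide rows the change was 0.76 and 2.09.

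The second Alas2 probe ordered the diets in the same way over a narrower range. Control values were -2.63, -2.83, -3.12 and -2.74, and high-fat values were -2.47, -2.60, -2.54 and -2.26. These groups also do not overlap. This is a log2 change of 0.36 (95% interval 0.02 to 0.70; 1.28-fold; adjusted p = 0.29 by limma), with 0.19 and 0.53 within the slide rows.

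The change differed between the Alas2 probes by 1.07 on the log2 scale. The first probe minus the second ran from -0.11 to 0.88 over the control arrays and from 1.15 to 1.72 over the high-fat arrays (n = 4 per group). That these probes disagree was known when the genes were chosen, so the difference is given as a description, with no test. Without the 2 dimmest arrays the difference was 1.14, without high-fat replicate 1 it was 1.0, and with slide row or replicate number as a block it was 1.07. The first probe also varied more between arrays of 1 diet, with a pooled within-diet SD of 0.53 against 0.18 for the second. The probes were correlated at r = 0.80 within diets over 8 arrays. The mean over both probes was 0.89 (adjusted p = 0.12).

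Alas1, the form of the enzyme in hepatocytes, was set beside both Alas2 probes. Its brightest probe had a log2 change of 0.30 (95% interval -0.42 to 1.02; adjusted p = 0.72 by limma), and the other 0.29. Without control replicate 3 the change at the brightest probe was 0.05, and without high-fat replicate 3 it was 0.53. After removing each diet's mean, the second Alas2 probe was correlated with the 2 Alas1 probes at r = 0.75 and 0.81, and the first Alas2 probe at 0.48 and 0.57, each over 8 arrays of the same slide. These are descriptions, and the part of Alas1 transcript in the second probe's signal was not tested.

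Alad, which joins 2 molecules of 5-aminolevulinate in the step after Alas, had negative changes at both probes, neither of them called. Control values were 6.02, 5.75, 5.95 and 5.68, and high-fat values were 5.75, 5.44, 5.43 and 4.98. High-fat replicate 1 lay among the control values and the others below them. The log2 change was -0.45 (95% interval -0.86 to -0.03; adjusted p = 0.29 by limma), and -0.35 (adjusted p = 0.53) at the second probe, with -0.29 and -0.61 at the first probe within the slide rows. The direction is opposite to that of Hbb and Alas2, in a gene that hepatocytes express too.

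Urod, which removes carboxyl groups from the heme precursor ring, had probes that went against each other. The brightest measured 2.89, 2.80, 2.52 and 2.54 in control and 2.72, 2.66, 2.53 and 2.54 in high-fat samples, a log2 change of -0.07 (95% interval -0.38 to 0.23; adjusted p = 0.85 by limma). The other measured -2.28, -1.47, -1.34 and -1.16 in control and -1.17, -1.39, -1.04 and -1.31 in high-fat samples, a change of 0.34 (95% interval -0.21 to 0.88; adjusted p = 0.56). Control replicate 1 was the highest array at the brightest probe and the lowest at the other. The correlation between the probes was -0.75 within diets, and their correlation with Hbb was 0.84 and -0.80, again over 8 arrays. Without control replicate 1 the change at the dimmer probe was 0.10. Averaged over both probes the change of Urod was 0.13.

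Fech, which puts the iron into heme, had small positive changes. Its brightest probe measured 0.50, 0.14, -0.32 and 0.34 in control and 0.34, 0.30, 0.52 and 0.33 in high-fat samples, a log2 change of 0.21 (95% interval -0.22 to 0.63; adjusted p = 0.66 by limma). The second, at chr18:60680214-60680273, gave 0.32 (95% interval 0.01 to 0.64; adjusted p = 0.31). The control spread at the first probe comes largely from the low value of control replicate 3, and without that array the change was 0.05.

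Among the 8 heme synthesis enzymes described here, each counted by its brightest probe as in the lists that follow, none was called, beside 0.877% of all tested genes, 0.35% as higher and 0.527% as lower, and the median log2 change was -0.01. Uros, which closes the precursor ring, had a change of 0.05. Cpox and Ppox, which oxidise the ring, had -0.14 and -0.09. Mitochondrial genes that supply glycine, iron or transport for heme numbered 10, with none called and a median of 0.09. Abcb6, a porphyrin transporter, had a change of 0.26 (adjusted p = 0.46 by limma), Glrx5, of iron-sulfur cluster assembly, -0.23, and the mitochondrial glycine carrier gene Slc25a38 0.21. Of all 23 tested probes of these mitochondrial genes 1 was called as higher, a dimmer probe of Tmem14c, which is needed to move a heme precursor into the mitochondrion (1.05; 95% interval 0.64 to 1.45; adjusted p = 0.043 by limma). The other Tmem14c probes gave -0.06 and -0.02, so its probes disagree, and the call was lost in 11 alternatives. Heme breakdown and transport gave a median of -0.03 over 10 tested genes, none called, with Blvra at -0.32, Blvrb at -0.30 and Abcg2 at 0.48.

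**Figure D4:**
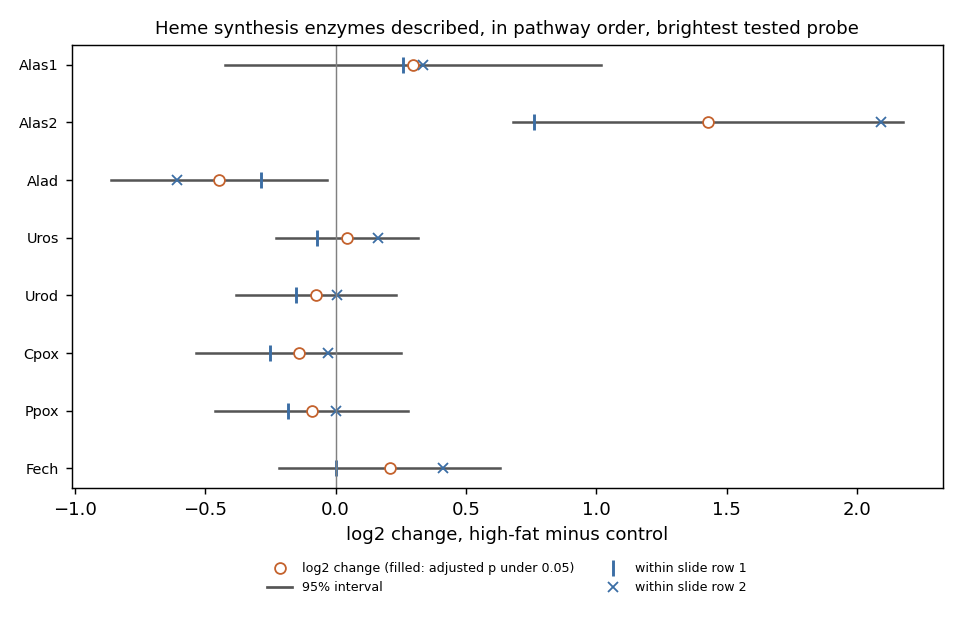
Log2 change, high-fat minus control, of 8 heme synthesis enzymes from the first step at the top to the last, each by its brightest tested probe. Circles are the change over 4 arrays per diet with its 95% interval, and the bar and cross marks are the changes within slide rows 1 and 2. Alas2 stands at 1.43 and the others lie between -0.45 and 0.30.

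Genes of the red cell had changes in both directions. Of 23 genes of its membrane and cytosol described here that are on the array, 15 were tested. The members Slc4a1 and Ahsp are among the 15, and Epb42 is among those not tested. None of the 15 was called by its brightest probe, with a median log2 change of 0.13, beside 0.00 over all genes. Rhd, a blood group membrane protein, had 1.48 (adjusted p = 0.059 by limma), and Car1, the carbonic anhydrase of red cells, 1.43 (adjusted p = 0.13). Rhd values were -6.44, -6.35, -5.80 and -5.22 in control and -4.74, -4.50, -4.58 and -4.05 in high-fat samples, with no overlap. Its second probe was the 1 called as higher of all 31 tested probes of these genes, beside 0.377% of all probes (1.65; 95% interval 1.06 to 2.24; adjusted p = 0.038). That probe was well above background on 2 of 4 control arrays and on all high-fat arrays, and its call was lost in 12 alternatives, among them normexp, where the change was 0.51. By slide row the change of the brightest Rhd probe was 1.77 and 1.19, and that of the second 1.77 and 1.53. Dmtn, a protein of the membrane skeleton that other cells also make, had -0.96 (adjusted p = 0.11), and Pklr had -0.97 (adjusted p = 0.18 by limma). By brightest probe the groups did not overlap for 1 of the 15 genes as higher, Rhd, beside 5.18% of all probes. They did not overlap for 2 as lower, Dmtn and Pklr, beside 5.46%.

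Transcription factors and receptors of red cell precursors showed no common direction. Of 13 tested genes none was called, and the median log2 change was 0.09. Klf1, an erythroid transcription factor, had 0.46 (adjusted p = 0.37 by limma) and -0.09 by its other probe, and Gata1 and Gfi1b were too dim to test. Nfe2 had -1.82 (adjusted p = 0.23), Lyl1 -0.79 and the transferrin receptor gene Tfr2, which hepatocytes express, 0.36.

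Of the 10 red cell markers listed for a check of cell types 5 were tested, while the others, Epb42, Rhag and Gata1 among them, were not tested. The mean of the tested ones was -1.63, -1.98, -2.64 and -2.08 on control replicates 1 to 4 and -1.56, -1.29, -1.55 and -1.31 on high-fat replicates 1 to 4. All high-fat arrays lay above all control arrays by this mean, which is given with no test since its members overlap those described above. The log2 of their summed signal, in which Hbb takes most, ran from 3.27 to 4.84 in control and from 4.76 to 5.29 in high-fat samples, and there control replicate 1 lay among the high-fat arrays.

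Markers of other blood and liver cells differed in direction between cell types. Of the platelet markers 7 were tested and none was called, with a median of 0.43, and Gp1bb had 1.14 (adjusted p = 0.098 by limma). Of 5 tested neutrophil genes, with a median of 0.22, 1 was called as higher, beside 0.35% of all genes. This was the defensin gene Np4, which rose at least 14.46-fold (adjusted p = 0.016 by limma). Its probe was well above background on no control array and on all high-fat arrays, and so passed the filter only through the high-fat group; the second Np4 probe had 0.63, and the call was lost in 4 alternatives. Other neutrophil genes went both ways, with S100a9 at -0.24 and Lcn2 at 0.39 by one probe and -1.06 by the other. Of 8 tested lymphocyte genes, with a median of -0.47, 1 was called as lower, beside 0.527% of all genes. This was Cd3g of the T cell receptor complex, with a log2 change of -1.44 (adjusted p = 0.042 by limma) and -1.24 at its other probe. Its call was lost in 11 alternatives. Of the 8 genes 6 had negative changes, among them Cd3d with -0.69 and Cd8a with -0.71 (adjusted p = 0.076 and 0.20 by limma). The dimmer Cd3e had 0.02 and Cd79b 0.31. All 7 tested Kupffer cell and macrophage genes had negative changes at their brightest probes, from -2.38 to -0.04, none called. For 3 of the 7, Marco, Clec4f and Vsig4, the groups did not overlap, beside 5.46% of all probes in that direction. Their other probes had -2.62, -0.66 and -0.73, while dimmer probes of Cd163 and Adgre1 had 0.12 and 0.25. The part of these cells in the changes of the globin genes was not tested. The summed signal of the 5 tested platelet markers ran from -0.65 to -0.17 in control and from -0.67 to 0.04 in high-fat samples as a log2 value, that of 4 tested neutrophil markers from 0.73 to 1.48 and from 0.14 to 1.82, that of 5 lymphocyte markers from -2.58 to -1.70 and from -3.58 to -2.96, and that of 6 macrophage markers from 4.42 to 4.84 and from 3.36 to 4.24.

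The genes whose values were most like those of Hbb were found by the correlation of deviations from the diet means over the 8 arrays, which share a slide and their brightness. The 5 nearest among all tested genes were Hbb-bs (r = 0.991), Xylb (0.980), Hbb-b1 (0.980), Pear1 (0.978) and Sumf2 (0.974). Pear1, known as a platelet receptor gene, had a log2 change of 0.19, and Xylb, a sugar kinase gene, of 0.17. The nearest to the first Alas2 probe were Abhd6 (0.992), Hba-a1 by its dimmer probe (0.988), Mthfs (0.978), Mark4 (0.975) and Hbe2 (0.974). Abhd6, Mthfs and Mark4 had log2 changes of -0.38, -0.04 and 0.35. With the diet means left in, their r with that probe was -0.14, 0.42 and 0.96. Among members and globins, Alas2 at its first probe followed Hbb at 0.91 and at its second at 0.75, Ahsp at 0.53 and the first Alad probe at 0.18.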

How the data were processed

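Scanner files of 8 arrays were used. Per the file headers, the intensity values are Agilent Feature Extraction 10.7.3.1 processed signals, and the submitters' processing notes name that program. A table of log2 values was deposited too, higher for brighter spots and not centred per probe, whose scaling no source used here gives. It matched the scanner values scaled over all non-control probes with a correlation of at least 0.999 per array, had column medians between -3.21 and -3.10 and served as an alternative. Control spots and outlier-flagged spots were left out, none was saturated, and spots of a probe were averaged. A gene stood for its tested probe of highest mean. Tests used limma 3.58.1 (lmFit, eBayes) under R 4.3.3 on all 8 arrays with no covariate, and were tested on simulated data. The number of arrays limits the precision.

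The members and lists were chosen with earlier results of these data known. Genes named are all members, the alpha globins, Alas1, the called genes of each list with up to 3 of its smallest p, and the 5 genes most like Hbb or Alas2; others were named after their values were seen. Some genes of the lists are not reported here and were left out of the list counts. Names follow the accessions of RefSeq's GRCr8 table, which 73.0% of tested probes matched, and probe positions are those of the files on rn4. Promoter sequences are RefSeq's. For a probe that no array of a group measured well above background, the fold is a lower bound, set against that group's dimmest measured signals. Alternatives changed background correction, scaling, filter, variance model, array weights, blocks and arrays.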

Additional observations from a re-analysis of the deposited data

Results flagged for a closer look

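Of 130 sets of 4 arrays compared by their gaps, 4 held an array far from the other 3, and chance gives about 1 in 20. For the Ahsp probe A_64_P150726, control replicate 3 measured -5.15 and the other control arrays -4.08 to -3.95. For Slc25a38, a mitochondrial glycine carrier gene, control replicate 4 measured -0.78 and the other control arrays -0.49 to -0.43, and high-fat replicate 2 measured -0.48 and the other high-fat arrays -0.29 to -0.25. For Marco, a scavenger receptor gene of Kupffer cells, high-fat replicate 3 measured -2.47 and the other high-fat arrays 0.35 to 0.50.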

How the results depend on the processing

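The number of called probes, 286, was 10 with no filter, 529 with probes well above background on all 8 arrays, 532 with an intensity trend, 171 with slide row as a block, 25 without the 2 dimmest arrays and 23 to 154 without 1 array. Same-numbered samples had correlated deviations of -0.12, 0.26, 0.23 and 0.01, and 2 of 8 samples correlated best with their own number, so the numbers were not taken to pair samples; the replicate block left 1 called probe, none of the other erythroid, globin and heme genes by its brightest probe, and for the difference between Alas2 probes 1.07. That difference was 1.07 with slide row as a block, 1.14 without the 2 dimmest arrays and 0.88 to 1.21 without 1 array. The main fit called 1 gene among those other genes, Hba-a3. That count became 0 under quantile normalization, no filter, the all-array filter, robust eBayes and without the 2 dimmest arrays. It became 2 with an intensity trend, and was 0 to 1 without 1 array. The gene counted was not always the same. With slide row as a block Hba-a3 lost its call (adjusted p = 0.061 by limma) and Rhd was called (0.04). Alas2 gained a call at 1.30 after normexp and at 1.43 under the all-array filter. Rhd was called by its brightest probe in 3 alternatives. Directions turned for Urod as the mean of its probes (0.13); for Slc4a1, with array weights (0.0010) and without the 2 dimmest arrays (0.069 and, by its second probe, 0.10), with ranges without 1 array of -0.79 to 0.075 and -0.63 to 0.089; for Mb, with array weights (0.0028), without the 2 dimmest arrays (0.044) and without 1 array (-0.13 to 0.11); and for Hbz (-0.45 to 0.18) and Ppox (-0.18 to 0.0025) without 1 array. The cause of these changes was not tested. Every alternative kept the sign for Hbb, Alas2, Ahsp, Alad and Fech at each tested probe. Signal over background limits Epb42, Hba-a3 and Hbe1.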
